A study of Arabidopsis thaliana with 6 samples.

Results

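The nuclear genome of Arabidopsis thaliana carries a long copy of the mitochondrial genome near the centromere of chromosome 2, and 101 rows of the expression table report on loci in that stretch of chromosome 2 locus numbers. They are all rows whose locus ID starts with AT2G076, AT2G077 or AT2G078, leaving out MCM5 (AT2G07690), a subunit of the DNA replication helicase that lies among these numbers. The table holds 27826 rows in all, 92 of them for loci of the mitochondrial genome itself, whose IDs start with ATMG. The rule for the rows uses locus IDs only, but it was set with earlier results of these data known. Of the 101 loci, 31 had the same value as an ATMG row on all 6 arrays, to every digit deposited, and 70 did not.

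RNA was measured on 6 microarrays in whole 16-cell embryos, taken 72 h after hand pollination. The 3 nuclear samples held RNA of nuclei captured with INTACT, in which nuclei of the chosen cells carry a biotin tag and are pulled down, here with a marker of the whole embryo. The 3 cellular samples held total RNA of intact embryos picked out by hand under the microscope with a micromanipulator. Each group had 3 biological replicates per the labels, which name no strain or genotype beyond the tagging system and no separate plants. Differences of isolation and of RNA compartment cannot be told apart here. In RNA pooled from many cells, fewer cells of a type and less RNA per cell cannot be told apart either.

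Plant mitochondria keep a genome of their own, which encodes a small set of respiratory chain and ATP synthase subunits, proteins of cytochrome c maturation, ribosomal proteins, ribosomal RNAs and tRNAs. It is transcribed inside the organelle by polymerases of the phage type that are encoded in the nucleus. Copies of organelle DNA that settle in a nuclear chromosome mostly decay into pseudogenes, and a recent copy stays so similar to its source that a probe can bind transcripts of both. For a locus whose row equals an ATMG row, the measurement names both loci and cannot say which of them the RNA came from.

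The deposited values are RMA intensities, a probe set summary computed by the authors, and are given below as log2. The brightness of a row also depends on its probes, so levels are compared between arrays and not between loci. The median row stood at 2.56, 2.68 and 2.56 in the nuclear samples, against 2.46, 2.48 and 2.52 in the cellular samples. Detection calls are not used here, and precision is limited by the 3 arrays per group. As a check of the tissue, the median of 8 embryo genes (WOX2, LEC1 and ATML1 among them) lay between 2.25 and 2.87 on the nuclear arrays. On the cellular arrays it lay between 6.17 and 7.61, and 6 of the 8 fell in nuclear RNA. All 8 had every nuclear array below every cellular one. On the nuclear arrays these medians were near that of all rows, so the check did not mark the nuclear samples as embryo. The 8 endosperm markers stayed dim, with medians between 1.90 and 2.45 on nuclear and between 1.81 and 1.86 on cellular arrays. The 9 markers of the seed coat, a maternal tissue around the embryo, had medians of 7.23, 5.84 and 6.09 in the nuclear samples, against 3.12, 5.79 and 7.31 in the cellular samples. All 9 had the higher mean in nuclear RNA, by a median of 1.42 log2 units, against 0.14 for all rows. Their median SD over the cellular arrays was 1.36, against 0.27 for all rows, and 0 of them passed the test.

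RefSeq lists all 101 loci. It calls 58 protein-coding, 22 transcribed pseudogenes, 8 pseudogenes and 13 tRNA genes. Only 2 carry a name of their own, ABCC13 (AT2G07680), an ABC transporter of the multidrug resistance-associated class, and ABCI4 (AT2G07681), an ABC protein. The others go by locus ID and no function is given for them. Rows equal to an ATMG row made up 14 of the 22 transcribed pseudogenes, 8 of the 13 tRNA loci and 4 of the 8 pseudogenes, but 5 of the 58 protein-coding loci. Each of the 31 equalled a different ATMG row, and no insertion locus equalled another. AT2G07748, a tRNA-Trp locus, equalled both ATMG00930 and the chloroplast row ATCG00610, and AT2G07688, a transcribed pseudogene, equalled the chloroplast row ATCG00020 and no mitochondrial one. Elsewhere on the nuclear chromosomes 0 rows equalled an ATMG row and 3 equalled a chloroplast row.

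Placed in the gene order of chromosome 2 in RefSeq, the mitochondrial partners followed each other in 4 blocks of steadily falling or rising locus numbers. Block 1 held 9 equal rows and ran from ATMG01100 down to ATMG00750. Block 2 held 3 and ran from ATMG01310 down to ATMG01210. Block 3 held 8 and ran upward from ATMG00460 to ATMG00600, and block 4 held 11 and ran upward from ATMG00180 to ATMG00380. ATMG numbers follow the order of loci along the mitochondrial genome, so the equal rows keep the mitochondrial order within each block, and the direction differs between blocks.

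**Figure D1:**
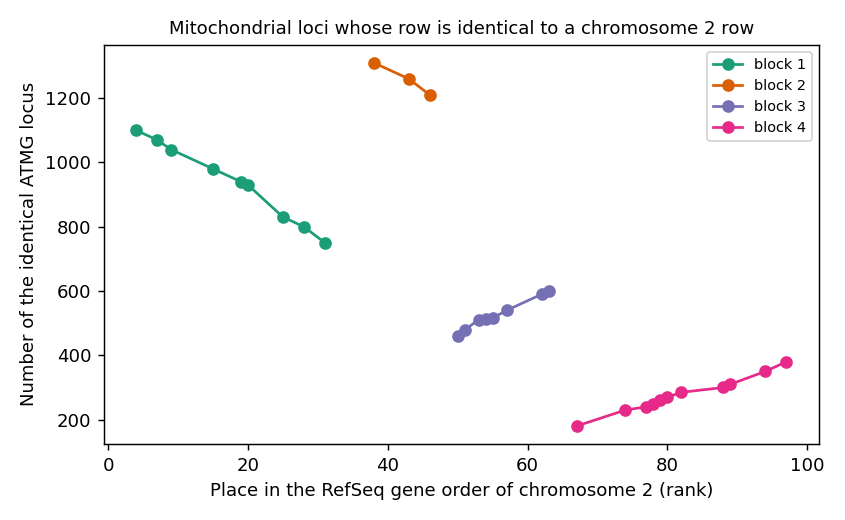
Number of the mitochondrial locus (vertical axis) whose row equals that of a chromosome 2 locus, against the place of the chromosome 2 locus in the RefSeq gene order (rank). The 31 equal rows fall on 4 monotone lines, 2 descending and 2 ascending, drawn as blocks 1 to 4.

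The first and the last of the 31 loci, AT2G07812 and AT2G07764, enclose 94 of the 101 loci. The other 7 lie outside: AT2G07600, AT2G07640 and AT2G07749 come before, and AT2G07835, ABCC13, AT2G07750 and AT2G07760 after. AT2G07749 and AT2G07835 are the nearest loci on each side and lay above the median of all rows on every array, with values between 4.06 and 5.95 for AT2G07749 and between 8.29 and 11.10 for AT2G07835. AT2G07640, ABCC13, AT2G07750 and AT2G07760 stayed between 1.34 and 3.10 on all arrays, near the median of all rows. In the gene order MCM5 lies between ABCC13 and AT2G07750, so AT2G07750 and AT2G07760 come after MCM5. Low values do not settle whether these 4 belong to the mitochondrial copy. AT2G07752, whose row equals ATMG00800, stayed between 1.57 and 1.77.

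A minority of the rows without an exact partner lay close to a mitochondrial row. For 16 of the 70 the nearest ATMG row lay within 0.5 log2 units on each of the 6 arrays. The closest were AT2G07755, a tRNA-Met locus, to ATMG01340 and AT2G07808 to ATMG01330, both within 0.01, followed by AT2G07716 to ATMG00570 (0.07) and AT2G07717 to ATMG00580 (0.11). Of these 16 loci 12 lay inside a block, and for 10 of the 12 the number of the nearest ATMG row fell between those of the equal rows on either side. The exceptions were AT2G07708, nearest to ATMG00570, and AT2G07728, nearest to ATMG00750. Whether such loci share sequence was not tested.

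Most insertion loci read far above the middle of the arrays in both kinds of RNA. Of the 101, 76 lay above the array's median on all 6 arrays and 4 at or below it on all 6. Over the 31 loci with an identical ATMG row the median was 7.44, 6.91 and 7.36 in the nuclear samples, against 6.82, 7.82 and 7.55 in the cellular samples. Over the 70 without, it was 5.89, 5.05 and 5.94 in nuclear RNA, against 6.13, 7.60 and 7.06 in cellular RNA. In both sets cellular replicate 1 was the lowest cellular array and nuclear replicate 2 the lowest nuclear one. The 61 ATMG rows with no equal insertion locus had 7.03, 6.52 and 7.21 in nuclear RNA, against 7.64, 9.0 and 8.26 in cellular RNA. In contrast, 80 chromosome 2 rows with neighbouring locus numbers had medians between 2.16 and 2.48 on the nuclear and between 1.82 and 1.92 on the cellular arrays.

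**Figure D2:**
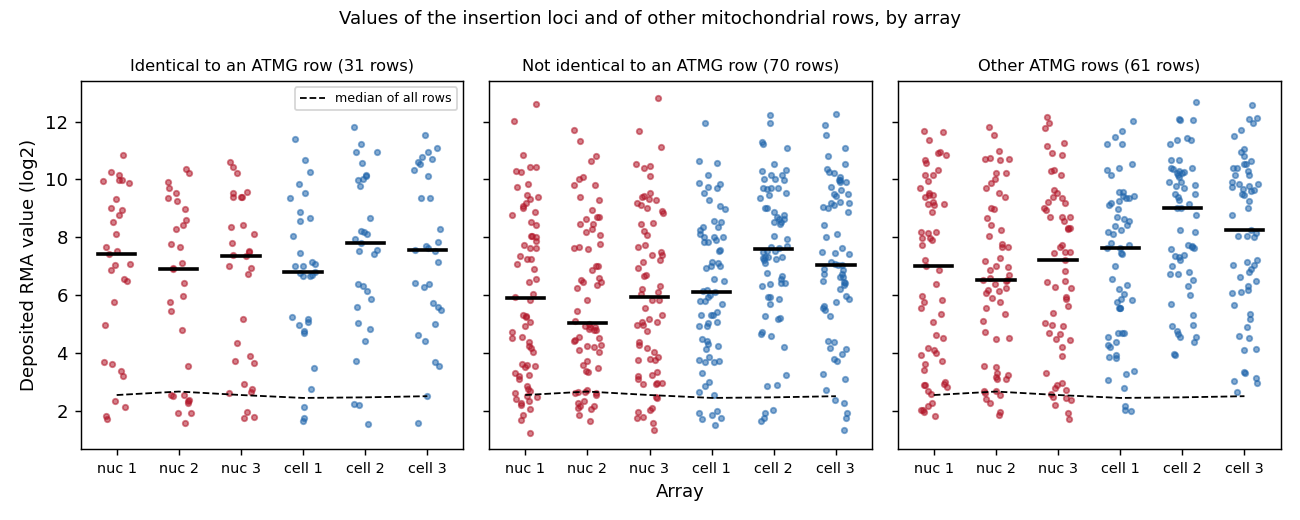
Deposited RMA value (log2, vertical axis) on each of the 3 nuclear (red) and 3 cellular (blue) arrays for insertion loci with an identical ATMG row, insertion loci without, and the other ATMG rows. Points are loci, bars are medians of the panel, and the dashed line is the median of all rows, near which few of them lie.

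Nuclear and cellular RNA were compared for each row with limma over the whole table, as nuclear minus cellular with 3 arrays each, and a row was called when its Benjamini-Hochberg adjusted p over all 27826 rows was under 0.05. Of the insertion loci 17 were called (16.8%, against 5.83% of all rows), of which 16 fell in nuclear RNA and 1 rose. That is 15.8% lower and 0.990% higher, against 4.66% and 1.17% of all rows. At an unadjusted p under 0.05 the count was 32 of 101 (background 23.6%). All 3 nuclear arrays lay below all 3 cellular arrays for 28 loci, or 27.7% against a background of 14.3%, and above them for 2, against a background of 19.0%. The median log2 change was -0.76, or -0.89 relative to the 0.14 of all rows, and 76 of the 101 changes were below 0. After cyclic loess between arrays 7 fell (6.93%, against 3.11% of all rows), and the median was -0.29. Under it 2 of the 101 rose, against 506 of all 27826 rows.

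The share of falls was above that of all rows in 1 range of brightness and below it in the others, with no test of the difference between ranges. Of 26 insertion loci with a mean over the 6 arrays above 4 and up to 6, 10 fell (38.5%), against 14.5% of all rows in that range. Of the 35 with a mean above 8, 4 fell (11.4%), against 16.2% of all rows as bright, and their median change was -0.33, against -0.61. Of 22 between 6 and 8, 2 fell (9.09%), against 15.7%, and of 18 at 4 or below, 0 fell, against 1.67%, a count that such a background would give. When only the 14499 brighter rows of the table were fitted, 91 insertion loci remained and 21 fell (23.1%, against a background of 11.6%). The ranges and this filter use the mean of both groups, so a locus low in nuclear RNA can enter through its cellular arrays. AT2G07672, with nuclear values between 1.79 and 2.17, passed the filter in this way and gained a call there. These shares of falls are therefore not independent of the cut by brightness.

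The split by an identical ATMG row gave falls on both sides. Of the 31 loci with one, 4 fell and 0 rose, with a median change of -0.52 and a range from -3.23 to 0.98. Of the 70 without, 12 fell and 1 rose, with a median of -0.79 and a range from -4.12 to 1.98. These are 12.9% lower with a partner and 17.1% lower without, against 4.66% of all rows. After cyclic loess, when 3.11% of all rows fell, 3 fell and 0 rose with a partner, and 4 fell and 2 rose without. Of the 92 ATMG rows, of which those 31 form a part, 16 fell and 0 rose, with a median of -0.87, and after cyclic loess 8 fell and 1 rose. The 61 others had 12 falls, 0 rises and a median of -1.08. No test was made across loci, which share sequence and arrays.

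The 4 loci that fell and share a mitochondrial row were of different classes. AT2G07794, a tRNA-Met locus (equal to ATMG00460), had 2.34, 2.35 and 2.63 in nuclear RNA and 4.71, 5.88 and 6.44 in cellular RNA, a change of -3.23 (SE 0.44, adjusted p = 0.0149). Its nuclear values lay near the median of all rows. AT2G07826, a transcribed pseudogene (equal to ATMG01210), had 7.52, 6.43 and 7.53 in nuclear and 9.35, 10.58 and 10.33 in cellular RNA, a change of -2.93 (SE 0.44, adjusted p = 0.0197), and was well above the median in both. AT2G07686, a pseudogene (equal to ATMG00750), had 3.21, 2.55 and 2.93 in nuclear and 4.77, 6.16 and 5.01 in cellular RNA, a change of -2.42 (SE 0.41, adjusted p = 0.0260). AT2G07707, a protein-coding locus (equal to ATMG00480), had 9.99, 9.27 and 10.21 in nuclear and 11.38, 11.81 and 11.54 in cellular RNA, a change of -1.75 (SE 0.30, adjusted p = 0.0259). In each of them every nuclear array lay below every cellular one. The calls of AT2G07794, AT2G07826 and AT2G07686 were kept after cyclic loess. That of AT2G07707 was lost, at an adjusted p of up to 0.110 over all alternatives. AT2G07686 lost its call in 6 of the 15 alternatives, at an adjusted p of up to 0.0846.

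Of the loci without a partner, 3 passed in every alternative fit. AT2G07798, a protein-coding locus, had 3.63, 3.37 and 3.78 in nuclear and 6.0, 6.57 and 6.37 in cellular RNA, a change of -2.72 (SE 0.23, adjusted p = 0.00497), the lowest p of all insertion loci. AT2G07697, a pseudogene beside it in the gene order, had 3.23, 2.37 and 2.99 in nuclear and 5.32, 5.2 and 5.48 in cellular RNA, a change of -2.46 (SE 0.27, adjusted p = 0.00927). AT2G07683, another pseudogene, had 4.38, 5.0 and 5.09 in nuclear and 8.01, 8.77 and 7.44 in cellular RNA, a change of -3.25 (SE 0.39, adjusted p = 0.0107). The group SDs of these 3 loci lay between 0.14 and 0.67. Over all rows the median SD was 0.34 in nuclear and 0.27 in cellular RNA. The other 14 calls were each lost when at least 1 array was left out, and 9 calls were lost after cyclic loess.

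Of the remaining falls without a partner, AT2G07696 and AT2G07739, both protein-coding, had the highest means over the 6 arrays. AT2G07696 had 9.0, 7.61 and 8.49 in nuclear and 10.16, 11.22 and 10.81 in cellular RNA, a change of -2.37 (adjusted p = 0.0329). Its values on the 6 arrays lay within 0.20 of those of ATMG01270. AT2G07739 had 8.52, 8.65 and 8.85 in nuclear and 9.86, 10.29 and 10.10 in cellular RNA, a change of -1.41 (SE 0.20, adjusted p = 0.0172). Its values lay within 0.39 of those of ATMG00370, a row that fell as well (change -1.37, adjusted p = 0.0224). Cyclic loess, the replicate number as a block and leaving out cellular replicate 2 each ended the calls of AT2G07696 and AT2G07739. The trended robust variance ended that of AT2G07739 too. The other 7 falls were of protein-coding loci too, with changes from -3.24 to -2.12 and adjusted p from 0.0233 to 0.0455.

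Of those 7, AT2G07774 had 4.26, 4.55 and 3.24 in nuclear RNA, against 6.19, 8.53 and 7.07 in cellular RNA. AT2G07772 had 3.56, 4.90 and 4.39 in nuclear RNA, against 7.01, 8.63 and 6.63 in cellular RNA. AT2G07719 had 2.88, 4.80 and 3.79 in nuclear RNA, against 5.96, 7.54 and 6.64 in cellular RNA. In these 3 loci cellular replicate 2 was the highest array. AT2G07669 had 3.54, 4.80 and 3.78 in nuclear RNA, against 5.69, 7.28 and 6.88 in cellular RNA. AT2G07728 had 3.31, 2.63 and 3.23 in nuclear RNA, against 5.05, 6.41 and 5.30 in cellular RNA, and its nearest mitochondrial row was ATMG00750. Cellular replicate 2 was the highest array here as well. AT2G07684 had 6.58, 6.52 and 6.21 in nuclear RNA, against 7.84, 9.35 and 8.87 in cellular RNA, and AT2G07706 had 4.93, 4.47 and 4.78 in nuclear RNA, against 6.14, 7.68 and 6.73 in cellular RNA. All 7 lost the call without cellular replicate 2.

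**Figure D3:**
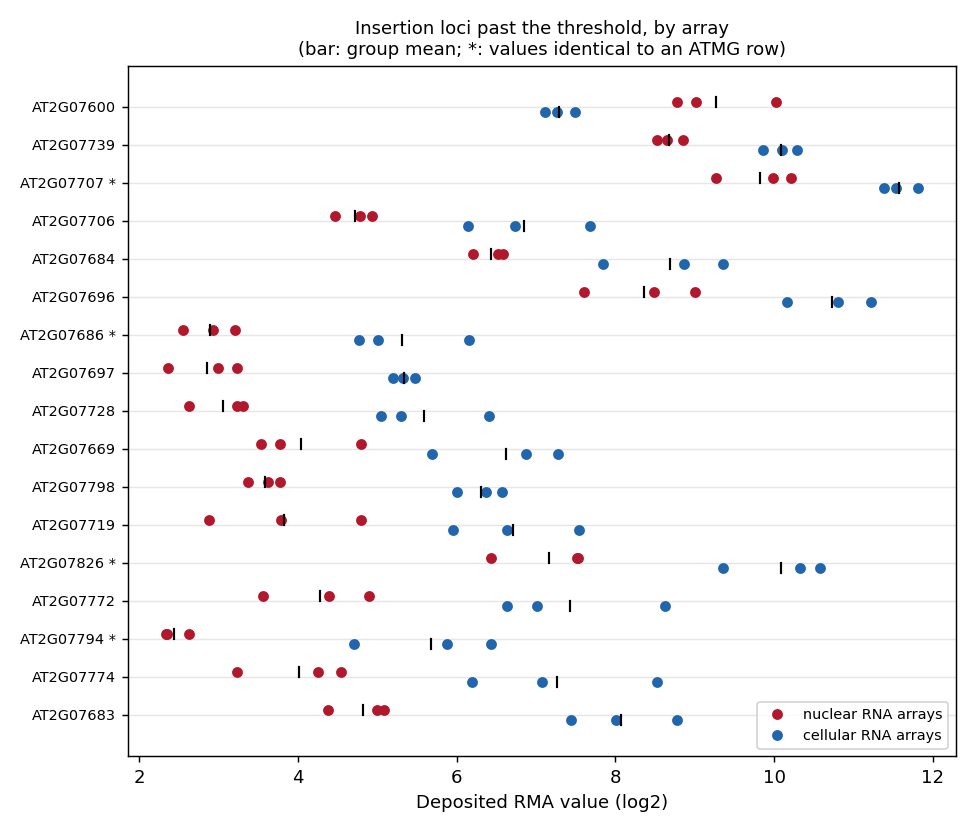
Deposited RMA value (log2, horizontal axis) of the 17 insertion loci past the threshold on the 3 nuclear (red) and 3 cellular (blue) arrays, ordered by change, with bars at the group means. The arrays of the groups do not overlap for any of them. AT2G07600, at the top, is the only locus with the nuclear arrays to the right.

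The 1 rise was that of AT2G07600, a transcribed pseudogene that lies outside the run of mitochondrial partners. It had 8.77, 10.02 and 9.01 in nuclear and 7.11, 7.27 and 7.49 in cellular RNA, a change of 1.98 (SE 0.35, adjusted p = 0.0309), and lost the call when nuclear replicate 3, cellular replicate 1 or cellular replicate 2 was left out (adjusted p up to 0.120). Within the run of 94 loci 16 fell and 0 rose, with a median of -0.78. AT2G07751, a protein-coding locus of block 1, was the only one inside with all nuclear arrays above the cellular ones, at 10.42, 10.80 and 10.40 in nuclear and 9.55, 10 and 9.93 in cellular RNA. Its change of 0.72 (adjusted p = 0.125) did not pass as deposited, and after cyclic loess it was 1.26 (adjusted p = 0.0367).

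Several of the largest changes did not pass. AT2G07678 had the lowest change of all insertion loci, -4.12 (SE 1.19, adjusted p = 0.106). Its nuclear values were 6.04, 2.55 and 7.48, against 8.97, 9.71 and 9.75 in cellular RNA, so the groups were apart but the nuclear arrays spanned 4.93. AT2G07672 had 2.07, 2.17 and 1.79 in nuclear and 3.69, 7.12 and 5.76 in cellular RNA, a change of -3.51 (adjusted p = 0.0622). AT2G07721 had 3.11, 4.85 and 6.10 in nuclear and 7.16, 8.48 and 8.02 in cellular RNA, a change of -3.20 (adjusted p = 0.0686). In both the nuclear arrays lay below the cellular ones. AT2G07777 had 5.83, 6.37 and 5.85 in nuclear and 6.93, 8.62 and 9.06 in cellular RNA, a change of -2.19 (adjusted p = 0.0788), again with no overlap. AT2G07825 had 5.32, 2.68 and 5.32 in nuclear and 5.08, 7.23 and 6.74 in cellular RNA, a change of -1.91 with overlap (adjusted p = 0.253). MCM5, the excluded neighbour, had 3.92, 3.39 and 4.44 in nuclear and 7.40, 6.97 and 5.06 in cellular RNA (change -2.56, adjusted p = 0.0745).

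Along the chromosome the falls were counted by block, beside the 4.66% of all rows that fell. The blocks were drawn after the values were seen, and no test of position was made. Blocks 1 and 2, with the falling partner numbers, had 6 falls among 28 loci and 4 falls among 9, and medians of -1.23 and -1.69. Blocks 3 and 4 had 2 falls among 14 loci and 2 among 31, with medians of -0.22 and -0.43, and the 2 of 31 lie near the share of all rows. After cyclic loess, when 3.11% of all rows fell, block 1 had 2 falls and 1 rise, block 2 had 3 falls, and blocks 3 and 4 had 1 fall each. The medians were then -0.99, -1.54, 0.33 and 0.09, so the order of the blocks was kept while blocks 3 and 4 turned above 0. After quantile normalization block 3 alone did so, at 0.04. Falls stood next to each other in 3 places: AT2G07772 with AT2G07683, AT2G07697 with AT2G07798 and AT2G07826, and AT2G07706 with AT2G07794 and AT2G07707. Changes of loci next to each other differed by a median of 0.94, against 1.14 over all pairs.

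Neighbours could also go apart. In RefSeq 11 of the 100 neighbouring pairs overlap, and the files do not say whether the probes of such loci are separate. AT2G07706 overlaps the tRNA-Met locus AT2G07794, and both fell. AT2G07683 overlaps the tRNA-Glu locus AT2G07752, whose values stayed between 1.59 and 1.77 in nuclear and between 1.57 and 1.67 in cellular RNA, while AT2G07683 fell. AT2G07752 lay below the median of all rows on every array, where a fall could hardly be seen. This pair therefore does not tell whether their changes differ. AT2G07739 fell beside the overlapping tRNA-Cys locus AT2G07763, which had 9.46, 9.82 and 10.48 in nuclear and 8.36, 9.68 and 9.49 in cellular RNA (change 0.75, adjusted p = 0.341).

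**Figure D4:**
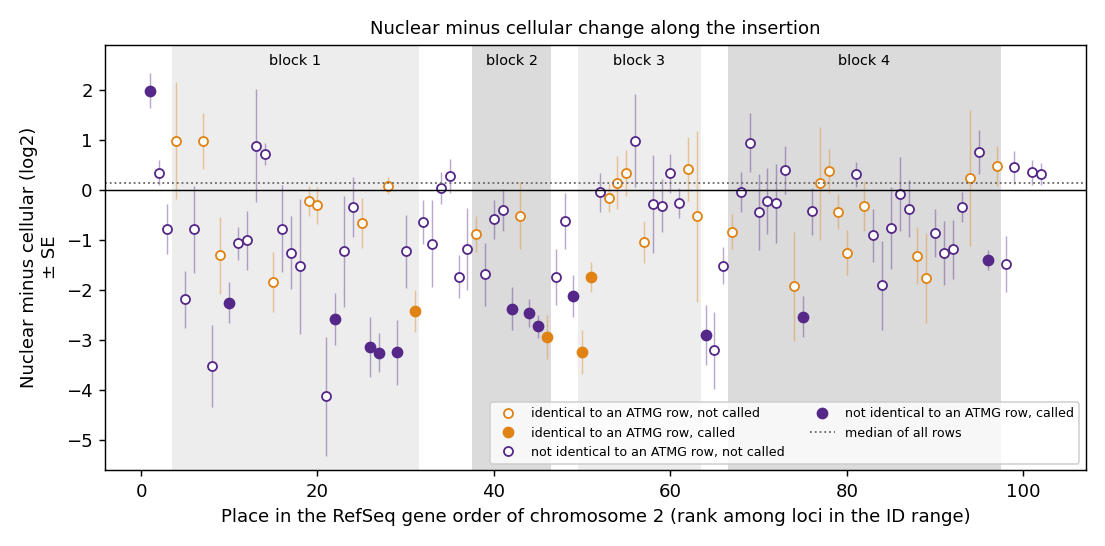
Nuclear minus cellular change (log2, with SE bars) of the 101 insertion loci against their place in the RefSeq gene order of chromosome 2 (rank), with blocks 1 to 4 shaded, loci equal to an ATMG row in orange, the others in purple and called loci filled. Of the 17 called loci 10 lie in blocks 1 and 2, and the dotted line at 0.14 is the median of all rows.

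By class, the 58 protein-coding loci had 11 falls, 0 rises and a median change of -0.87, and the 8 pseudogenes had 3 falls and a median of -1.54. After cyclic loess the protein-coding loci had 2 falls and 1 rise, and after quantile normalization 5 falls and 0 rises, while the pseudogenes had 3 falls under both. Of all rows 3.11% fell after cyclic loess and 3.37% after quantile normalization. The 2 of 58 lie near the first of these shares. The 22 transcribed pseudogenes had 1 fall, 1 rise and a median of -0.30, which turned to 0.25 after cyclic loess. The 13 tRNA loci had 1 fall, AT2G07794, and a median of 0.08, or -0.06 relative to all rows. The 1 of 22 and the 1 of 13 lie near the 4.66% of all rows that fell.

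Several tRNA loci, named for the adaptor RNAs of translation, had wide nuclear replicates. AT2G07762, tRNA-Pro (equal to ATMG00350), had 9.99, 5.77 and 4.37 in nuclear and 6.67, 6.34 and 6.39 in cellular RNA. AT2G07757, tRNA-Ser (equal to ATMG00230), had 7.08, 2.57 and 3.89 in nuclear and 6.68, 6.38 and 6.28 in cellular RNA. In both, nuclear replicate 1 stood above every cellular array and nuclear replicates 2 and 3 below. AT2G07746, tRNA-Gln, went another way, with 2.78, 3.38 and 7.41 in nuclear and 4.41, 7.33 and 6.43 in cellular RNA. AT2G07743, tRNA-Asp, had 7.44, 5.97 and 5.19 in nuclear and 5.17, 5.04 and 5.48 in cellular RNA (change 0.97, adjusted p = 0.337). AT2G07764, tRNA-Asn, was steady on the nuclear arrays, with 8.52, 8.61 and 8.42, against 7.16, 8.66 and 8.30 on the cellular ones. The other tRNA loci without a call, for Tyr, Trp, Glu, Met, Gly and Cys, had adjusted p from 0.341 to 0.781.

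The range over the 3 nuclear arrays exceeded 3 log2 units for 13 of the 101 insertion loci, and the range over the 3 cellular arrays did so for 3. Among all 27826 rows the counts were 741 and 322. Nuclear replicate 1 was the highest nuclear array for 7 of the 13, replicate 2 for 2 and replicate 3 for 4, and 0 of them were called. The widest was AT2G07809, a transcribed pseudogene (equal to ATMG00600), with 9.02, 1.94 and 3.75 in nuclear and 4.97, 5.59 and 5.75 in cellular RNA. ABCI4 spanned 4.76 over the nuclear arrays, at 4.54, 9.30 and 6.66 in nuclear and 8.02, 8.06 and 8.13 in cellular RNA, with a change of -1.23 that did not pass (adjusted p = 0.515). AT2G07674 had 7.25, 3.72 and 2.93 in nuclear and 3.32, 4.67 and 3.28 in cellular RNA, and AT2G07812 (equal to ATMG01100) had 4.96, 9.35 and 6.75 in nuclear and 5.07, 7.44 and 5.61 in cellular RNA. Over all 101 loci the nuclear range was the wider for 47 and the narrower for 54.

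**Figure D5:**
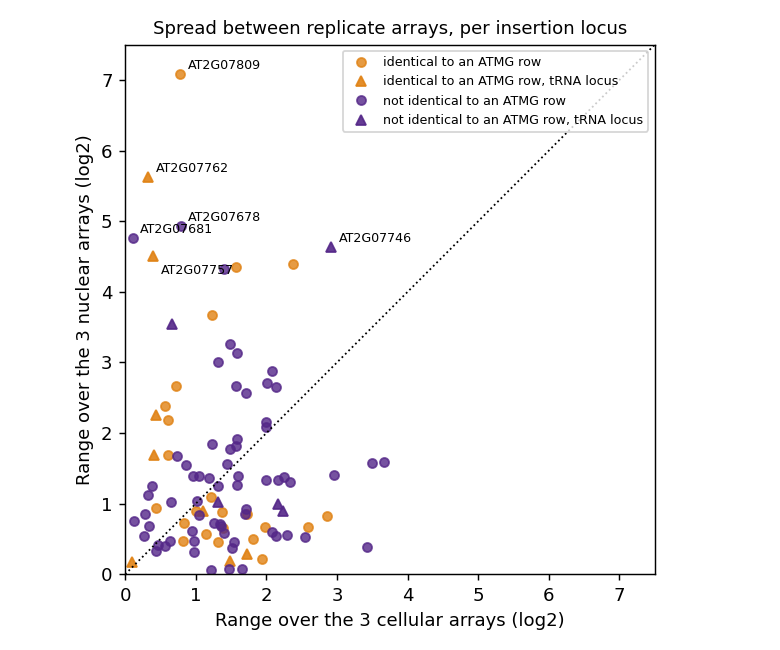
Range over the 3 nuclear arrays (vertical axis, log2) against the range over the 3 cellular arrays (horizontal axis, log2) for each insertion locus, with tRNA loci as triangles and loci equal to an ATMG row in orange. The 6 widest nuclear ranges are named, and points above the dotted line of equality vary more between nuclear arrays.

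On the cellular side the arrays differed in a common way. Cellular replicate 1 was the lowest of the 3 cellular arrays for 85 of the 101 loci (84.2%), against 34.3% of all rows, and for 74 of the 92 ATMG rows. AT2G07712, a transcribed pseudogene, had 4.93, 7.65 and 8.42 on cellular replicates 1 to 3, with 8.06, 8.72 and 7.15 on the nuclear arrays (change 0.98, adjusted p = 0.538). AT2G07718 (equal to ATMG00590) had 6.78, 8.22 and 9.37 on the cellular and 8.96, 8.29 and 8.36 on the nuclear arrays. The seed coat markers were likewise lowest on cellular replicate 1, at a median of 3.12, while the embryo markers were highest there, at 7.61. Their part in the result was not tested. Without cellular replicate 1 the median change of the insertion loci was -1.17 and 14 fell (13.9%, against a background of 1.60%). Without cellular replicate 2 the median was -0.45 and 3 fell (2.97%, against 0.916%).

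The 5 uncalled loci with the highest means over the 6 arrays had small changes. AT2G07688, equal to the chloroplast row ATCG00020, had 12.02, 11.70 and 12.82 in nuclear and 11.94, 12.22 and 12.26 in cellular RNA. AT2G07727, a protein-coding locus, had 12.60, 11.34 and 11.69 in nuclear and 10.64, 11.94 and 11.89 in cellular RNA. AT2G07717, AT2G07709 (equal to ATMG00510) and AT2G07732 had changes of -0.26, -0.17 and 0.31. In all 5 the groups overlapped and adjusted p lay between 0.458 and 0.952.

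Genes of the nuclear chromosomes that serve the mitochondrion gave the following values. Of 24 nuclear-encoded subunits of the respiratory chain and ATP synthase, alternative oxidase and cytochrome c included, 1 fell and 0 rose. That is 4.17% lower, near the 4.66% of all rows, with a median of -0.64 that was -0.18 after cyclic loess. The fall was that of MPPBETA, the beta subunit of the mitochondrial processing peptidase and a core protein of complex III, at 6.02, 5.51 and 5.97 in nuclear and 7.86, 7.37 and 7.06 in cellular RNA (change -1.60, adjusted p = 0.0278), and 0 of the 24 fell after cyclic loess. Of 14 genes of organelle genome expression and upkeep 1 fell (7.14%, against 4.66% of all rows) and 0 rose, with a median of -0.83. The 1 fall was that of RPOTm (AT1G68990), a mitochondrial RNA polymerase of the phage type, at 2.91, 2.71 and 2.95 in nuclear and 4.61, 4.62 and 4.02 in cellular RNA (change -1.56, adjusted p = 0.0186). The 14 chloroplast rows of the table had 0 falls and 3 rises (21.4%, against 1.17% of all rows), with a median of 0.31. The 80 neighbouring chromosome 2 rows had 1 fall and 1 rise (background 4.66% lower and 1.17% higher), with a median of 0.35.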

How the data were processed

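The authors deposited a table of RMA intensity values for the 6 arrays, which their range puts on a linear scale. The method is named in the submitters' processing notes. Neither a version nor the array design and probe set definitions are given in the sources used here. The method includes a step that evens out the arrays' distributions, and rows can shift by it where RNA pools differ in make-up. Here the values were only taken to log2. Samples were grouped by title. All 27826 rows entered limma (version 3.58.1, R version 4.3.3), two-sided and without covariates, using lmFit with eBayes, which had 4 residual and 2.32 prior degrees of freedom. Adjustment was by Benjamini-Hochberg over all rows at 0.05. On simulated data the fit called 3 of 50 rows changed by 1 log2 unit and 22 of 50 changed by 2. It called 33 of 50 changed by 3 and 42 of 50 changed by 4, with 7 false among 107 calls. A row without a call can therefore still have changed.

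Names, classes and gene order of loci came from RefSeq, assembly TAIR10.1; no coordinates are given, since no build is named for the array. Named loci are those past the threshold, those with a symbol, the tRNA loci, and of the rest the 5 largest rises, 5 largest falls and 5 brightest. AT2G07809, the loci outside the run and the near matches were added after their values were seen, as were the blocks. The loci and lists were chosen with earlier results of these data known. Alternatives were cyclic loess, quantile normalization, centring, a filter on dim rows, RefSeq rows only, identical rows once, array weights, a trended robust variance, the replicate number as a block, and each array left out. Sequences of probes and loci are not used here.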

Additional observations from a re-analysis of the deposited data

How the results depend on the processing

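As deposited 16 insertion loci fell and 1 rose, with medians of -0.76 for all, -0.52 for those with an identical ATMG row and -0.79 for those without. The counts stayed within 1.5 times under centring, the filter on dim rows, RefSeq rows only, identical rows once, the trended robust variance and array weights. After cyclic loess 7 fell (6.93%, against 3.11% of all rows) and 2 rose, with medians of -0.29 for all and -0.08 for loci with an identical row. After quantile normalization 10 fell (9.90%, against 3.37% of all rows). All 7 and all 10 were among the 16. The change of 20 loci turned sign under a scaling alternative, 0 of them called. Leaving out 1 array gave 3 to 14 falls, the fewest without cellular replicate 2, and 0 to 1 rises; the median for all lay between -1.17 and -0.45. Over loci inside the run, an alternative chosen after seeing the data, 16 fell and 0 rose. With the replicate number as a block 7 fell (6.93%, against 2.03% of all rows) and 0 rose. The labels do not say whether same-numbered arrays were paired. Deviations of same-numbered arrays correlated at -0.052, -0.056 and -0.012 over all rows, and at 0.110, 0.159 and 0.070 over the insertion loci. These correlations do not settle the pairing. AT2G07798, AT2G07697 and AT2G07683 kept the call throughout, with adjusted p up to 0.0380, 0.0489 and 0.0458. With 3 arrays a group, changes of the loci with wide nuclear replicates could not be resolved.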
